A study of Homo sapiens with 8 samples.

Results

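The Hedgehog pathway is described here through 9 genes: the ligands SHH, IHH and DHH, the receptor gene PTCH1, the transducer SMO, the transcription factor genes GLI1, GLI2 and GLI3, and the secreted antagonist HHIP. They were taken by name from the 58233 genes of the table, and each matched a single Ensembl identifier. Polyadenylated RNA had been sequenced in 8 libraries from the human embryonic stem cell line HUES8 at stage 5 of a stepwise differentiation toward pancreatic endocrine cells. Buds (n = 3), small outgrowths shaken off the spheroids and separated by a filter, came from flasks 264, 270 and 274, and bulks (n = 5), the larger spheroids left behind, came from those flasks and from 252 and 261. The labels name no genetic change, no added agent and no day of culture for either group, so both hold the same line in the same protocol as far as stated, and the medium is not given in the sources used here. The comparison asks how the buds differ from the bulks of all 5 flasks, though flasks 252 and 261 have no bud library. Values within the shared flasks are given beside it for several genes.

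Hedgehog ligands are secreted, lipid-modified proteins that bind PTCH1 on receiving cells. Without ligand PTCH1 holds SMO inactive, and GLI3, with part of GLI2, is cut into a repressor; with ligand SMO enters the primary cilium and full-length GLI proteins switch on targets, among them GLI1, PTCH1 and HHIP, of which the latter pair feed back to limit the signal. In the embryonic foregut, SHH and IHH are made by the epithelium of stomach and intestine and received by the surrounding mesenchyme. The pancreatic bud of the mouse and chick arises where SHH is shut off, and many stem cell protocols for pancreas add a SMO antagonist for this reason.

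Libraries held 6083973 to 12508039 expected counts, and levels are given as CPM, the counts scaled to a common library total with TMM factors. Pancreatic progenitor markers (8 of 8 lower in buds, summed level 865 to 1262 CPM in bulks and 129 to 245 in buds) and endocrine markers (5 of 8 higher, none lower, 2101 to 8600 CPM in bulks and 11750 to 22400 in buds) were both present, so the labelled lineage was detected. The bulk of flask 264 stood apart in several of the genes below, and some results are also given without it. Bulk RNA cannot tell fewer cells of a type from less RNA per cell.

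The promoter windows below are those of the ligand that changed most and of the 2 feedback targets, PTCH1 and HHIP. They are shown because they hold, or lack, the binding letters of the factor at the end of the pathway. Each runs from 250 bases before to 50 bases after a RefSeq transcript start (GRCh38.p14), 5′ to 3′ on the gene's own strand. SHH lies at chr7:155812414-155812713 on the minus strand, PTCH1 at chr9:95509217-95509516 on the minus strand, and HHIP at chr4:144645906-144646205 on the plus strand. Capitals mark the 9-letter GLI consensus GACCACCCA or its reverse complement TGGGTGGTC.
SHH: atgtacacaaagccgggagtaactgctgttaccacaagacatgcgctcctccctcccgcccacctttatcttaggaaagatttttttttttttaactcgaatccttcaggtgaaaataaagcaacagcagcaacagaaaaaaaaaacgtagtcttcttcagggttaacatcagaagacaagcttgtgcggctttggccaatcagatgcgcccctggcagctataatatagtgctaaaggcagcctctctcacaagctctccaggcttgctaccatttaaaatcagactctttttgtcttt
PTCH1: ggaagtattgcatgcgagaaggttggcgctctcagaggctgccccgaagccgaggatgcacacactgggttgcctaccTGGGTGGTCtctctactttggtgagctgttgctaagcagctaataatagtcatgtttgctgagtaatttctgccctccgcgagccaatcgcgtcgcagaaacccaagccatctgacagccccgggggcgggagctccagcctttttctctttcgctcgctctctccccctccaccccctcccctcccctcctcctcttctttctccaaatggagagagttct
HHIP: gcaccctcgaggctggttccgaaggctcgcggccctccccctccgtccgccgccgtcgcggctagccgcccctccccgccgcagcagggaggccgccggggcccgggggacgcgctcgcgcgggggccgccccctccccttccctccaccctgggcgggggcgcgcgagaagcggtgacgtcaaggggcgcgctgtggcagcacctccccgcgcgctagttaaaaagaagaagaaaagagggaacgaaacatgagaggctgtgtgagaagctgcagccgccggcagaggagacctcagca
The consensus was searched on both strands in the 12 windows that RefSeq gave for 7 of the 9 genes (SHH, IHH, DHH, PTCH1, SMO, GLI2 and HHIP). Only this PTCH1 window held it, beginning 172 bases before the start. Of 35116 promoter windows of the same length, 83 (0.236%) did. PTCH1 had 5 windows, for alternative starts, and the other 4 held no match. The counts are per gene and do not separate these starts, and a match is a run of letters, not a shown binding site. The part of such letters in the levels of these genes was not tested.

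Most of the pathway's core was lower in buds. SHH, IHH, SMO, GLI3 and PTCH1 fell, by log2 folds from 0.53 to 3.44, and HHIP rose by 1.72; GLI2 did not pass, and DHH and GLI1 were too low to be tested. Thus 5 of the 7 members tested with edgeR's quasi-likelihood test were lower at an adjusted p below 0.05 and 1 was higher, where of all 16641 genes tested 47.2% were called, 23.8% lower and 23.4% higher. The median log2 fold was -1.20 over the 7 members tested and -0.02 over all genes tested. The CPM ranges of the groups did not overlap for SHH, IHH, SMO, GLI3 and HHIP, and the same held for 47.2% of all genes tested. HHIP reached the filter on low counts in all 3 buds but only 2 bulks, so it was tested only because it was higher in buds.

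**Figure D1:**
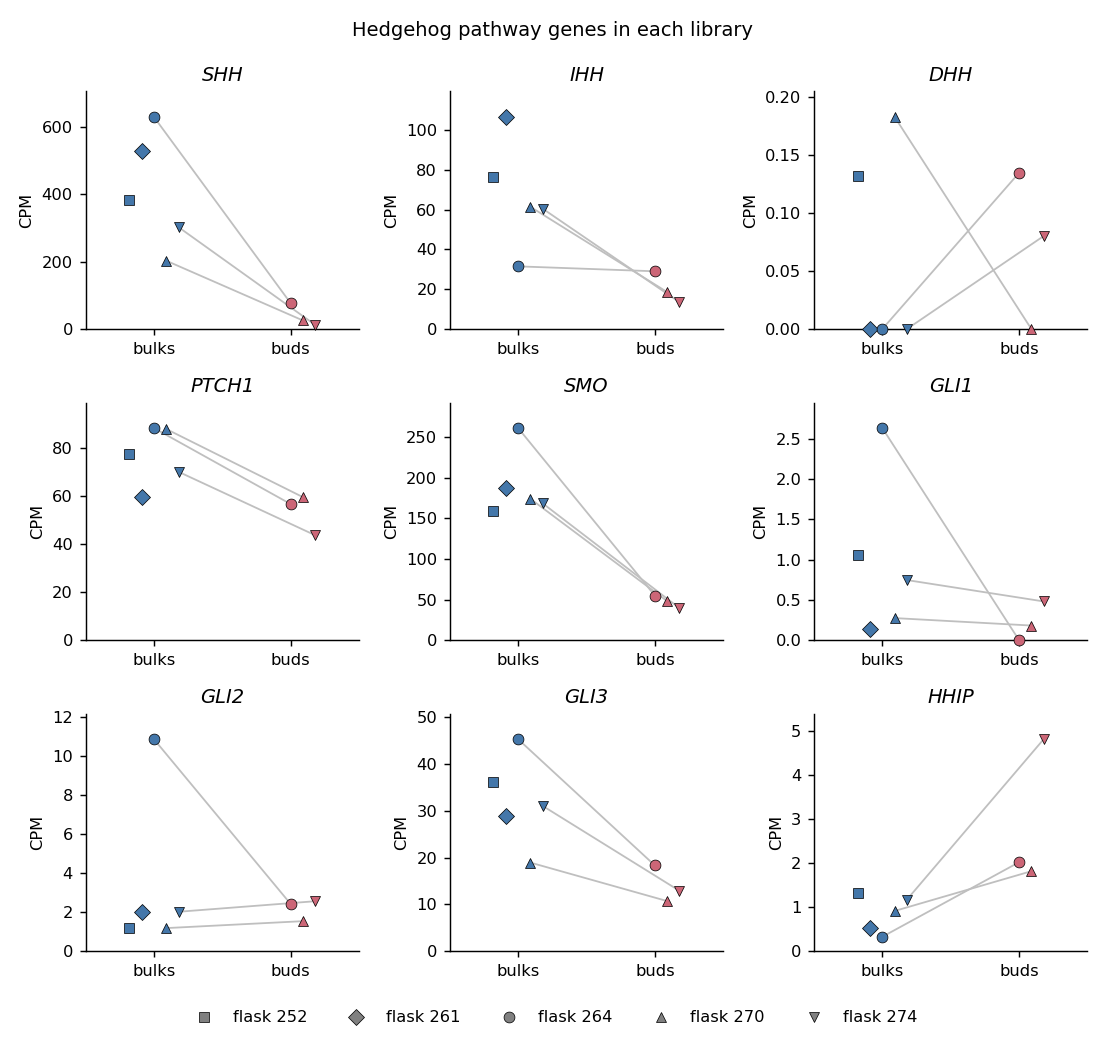
Level of each of the 9 genes in CPM (linear axes from 0, a scale for each gene) in bulks (blue, n = 5) and buds (red, n = 3); marker shapes are flasks and grey lines join the samples of 1 flask. SHH and SMO lie far apart between the groups, the lowest PTCH1 bulk meets the highest PTCH1 bud at 59.6 and 59.7 CPM, and GLI2 is at 10.9 CPM in the bulk of flask 264 against at most 2.57 in any other library.

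SHH, the ligand best known from gut and neural tube (chromosome 7, 155799980 to 155812463, minus strand, GRCh38), was at 383, 527, 628.5, 202.5 and 302 CPM in the bulks of flasks 252, 261, 264, 270 and 274. In buds it was at 76.6, 25.4 and 12.1 CPM in flasks 264, 270 and 274. The lowest bulk was therefore above the highest bud, a pattern shared by 23.7% of all genes tested. The fall of SHH was 3.44 ± 0.60 on the log2 scale (SE; edgeR adjusted p = 0.000893), a 10.9-fold lower level with a 95% interval of -4.77 to -2.12 on the log2 scale, and only 0.427% of tested genes had a lower fold. Within flasks, the bulk was 8.21, 7.98 and 24.9 times the bud in 264, 270 and 274. The bud of flask 264 kept the most SHH: without it the log2 fold was -4.45 (edgeR adjusted p = 0.000173), and without the bud of 274 it was -3.00 (0.00242).

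IHH, the ligand of cartilage and intestine (chromosome 2, 219054424 to 219060921), was at 76.1, 107, 31.5, 61.4 and 60.4 CPM in the same order of bulks and at 29.0, 18.6 and 13.5 CPM in buds. The groups did not overlap, but the bulk of flask 264 lay just above its own bud, at 1.09 times it, whereas the bulks of 270 and 274 were 3.31 and 4.48 times theirs. IHH fell by 1.74 ± 0.37 (SE; edgeR adjusted p = 0.00290), which is 3.33-fold, and with flask as a block by 1.36 (edgeR adjusted p = 0.0459). DHH, the ligand of Schwann cells and testis (chromosome 12), had at most 2 counts in any library, under the floor of 3 counts, which equals 0.241 to 0.494 CPM by library. DHH was thus not detectable at this depth.

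The ligands differed in how much they changed in these libraries. The ratio of SHH to IHH counts within a library, which no scaling of the library can change, was 5.03, 4.94, 19.97, 3.30 and 5.00 in bulks and 2.64, 1.37 and 0.899 in buds. Every bud was below every bulk. The mean log2 ratio was 2.60 ± 0.996 in bulks (SD, n = 5) and 0.57 ± 0.78 in buds (SD, n = 3), a difference of -2.03, lower in buds of 3 of 3 flasks. This ratio and the 2 others below were chosen after their values were seen, so they are descriptions with no test. The difference was -1.60 without the bulk of flask 264, -1.55 without the bulks of 252 and 264, and -1.67 without the bud of 274. Per length of the canonical transcript, SHH made up 63.7 to 91.4% of the summed ligand level in bulks and 32.3 to 58.4% in buds.

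On the receiving side, SMO, the membrane protein that carries the signal inward (chromosome 7, 129188633 to 129213545, plus strand), was at 159, 188, 261.0, 174 and 168 CPM in bulks and at 54.9, 48.0 and 39.4 CPM in buds. The groups were well apart, and the bulk of flask 264 was far above the other bulks. SMO fell by 2.003 ± 0.20 (SE; edgeR adjusted p = 3.15e-05), a 4.01-fold lower level, with 4.76, 3.62 and 4.27 within flasks 264, 270 and 274. A long non-coding RNA on the opposite strand shares 129 exon bases with SMO and had at most 10 counts in any library.

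PTCH1, the ligand's receptor and also a target of GLI (chromosome 9, 95442980 to 95517057, minus strand), was at 77.9, 59.6, 88.5, 88.1 and 70.2 CPM in bulks and at 56.8, 59.7 and 43.8 CPM in buds. The ranges touched, at the bulk of flask 261 and the bud of flask 270. PTCH1 fell by 0.53 ± 0.17 (SE; edgeR adjusted p = 0.0227; 95% interval -0.89 to -0.16), which is 1.44-fold, and the bulk was 1.56, 1.48 and 1.61 times the bud within flasks 264, 270 and 274. Without the bud of flask 274 it had -0.40 (edgeR adjusted p = 0.105), and without the bulks of 252 and 264 it had -0.44 (0.0889). An antisense long non-coding RNA shares 711 exon bases with PTCH1 and had at most 9.27 expected counts.

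The receptor and the transducer were also set against each other. The ratio of SMO to PTCH1 counts was 2.04, 3.15, 2.95, 1.97 and 2.40 in bulks and 0.967, 0.805 and 0.901 in buds. The log2 ratio was 1.297 ± 0.30 in bulks (SD, n = 5) and -0.17 ± 0.13 in buds (SD, n = 3), a difference of -1.47, lower in buds of 3 of 3 flasks.

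**Figure D2:**
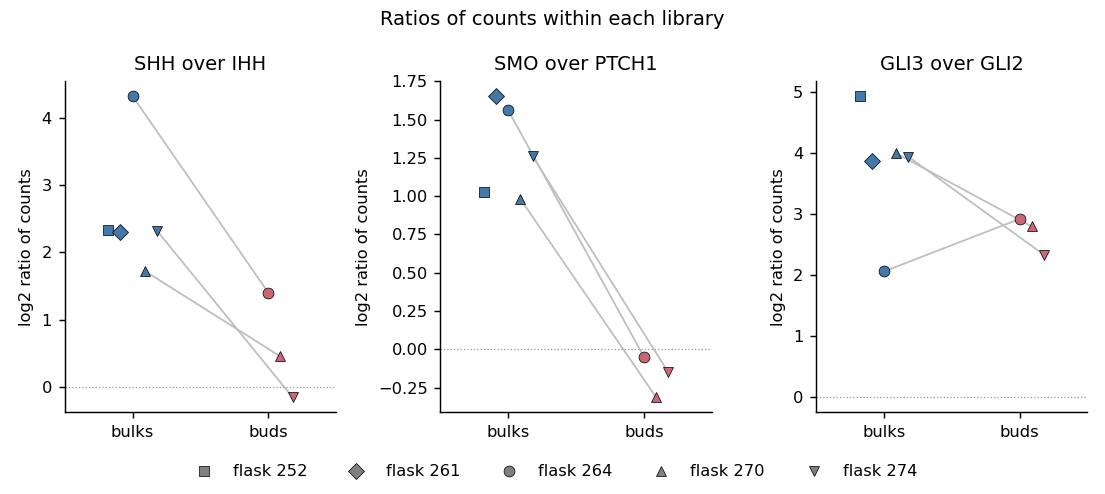
Log2 ratio of counts within each library for 3 pairs of genes, in bulks (blue, n = 5) and buds (red, n = 3), with grey lines joining samples of 1 flask and a dotted line at a ratio of 1. SHH over IHH and SMO over PTCH1 are lower in every bud than in every bulk, and the bulk of flask 264 is highest for SHH over IHH (4.32) and lowest of the bulks for GLI3 over GLI2 (2.06).

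HHIP, which binds and removes Hedgehog ligands (chromosome 4, 144646156 to 144745271, plus strand), went the other way from a very low level. It was at 1.32, 0.531, 0.330, 0.916 and 1.17 CPM in bulks, from 2 to 11 counts, and at 2.02, 1.82 and 4.82 CPM in buds, from 15 to 60 counts. The groups did not overlap, as was so for 23.5% of tested genes in the higher direction, and the bud of flask 274 held the highest level. HHIP rose by 1.72 ± 0.46 (SE; edgeR adjusted p = 0.0109), 3.30-fold. It passed the expression filter through the buds, all 3 of which but only 2 bulks reached the filter's 1.14 CPM, so it could be tested only because it was higher there. Without the bud of flask 274 it had 1.122 (edgeR adjusted p = 0.103). The antisense gene HHIP-AS1 shares 813 exon bases with HHIP and had at most 9 counts, and since the sources used here do not say whether the counting used strand, reads of the pair may be mixed.

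Among the GLI factors, GLI3 was the most abundant and GLI1 close to absent. GLI3, the main repressor of the pathway (chromosome 7, 41960949 to 42264100, minus strand), was at 36.2, 29.0, 45.3, 18.9 and 31.1 CPM in bulks and at 18.3, 10.7 and 12.9 CPM in buds. The lowest bulk, that of flask 270, was only just above the highest bud, that of 264, but within flasks the bulk was 2.47, 1.77 and 2.40 times the bud. GLI3 fell by 1.20 ± 0.28 (SE; edgeR adjusted p = 0.00489).

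GLI2, the main activator (chromosome 2, 120735623 to 120992653), was at 1.19, 1.99, 10.9, 1.19 and 2.03 CPM in bulks and at 2.43, 1.55 and 2.57 CPM in buds. Its bulks overlapped the buds on both sides, and the bulk of flask 264 was far above all. The log2 fold of GLI2 was -0.60 ± 0.72 (edgeR adjusted p = 0.518; 95% interval -2.20 to 0.99), and 0.44 (0.321) without that bulk. GLI1, whose transcript is a readout of the active pathway (chromosome 12, 57459785 to 57472268), had 8, 1, 16, 3 and 7 counts in bulks and 0, 2 and 6 in buds, or at most 2.64 CPM, and shares 5 exon bases with ARHGAP9 on the other strand. With no filter beyond 1 count its log2 fold was -1.79 ± 0.82 (edgeR adjusted p = 0.124). The ratio of GLI3 to GLI2 counts was 30.4, 14.5, 4.17, 15.9 and 15.3 in bulks and 7.56, 6.94 and 5.03 in buds, a log2 difference of -1.07, lower in buds of 2 of 3 flasks. It was -1.50 without the bulk of flask 264.

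Set side by side per kilobase of the canonical transcript, the levels in bulks ran in the order SHH (87.8 ± 36.8 CPM per kilobase; SD, n = 5), SMO (47.8 ± 10.3), IHH (27.2 ± 11.0), PTCH1 (8.87 ± 1.42), GLI3 (3.82 ± 1.15), GLI2 (0.484 ± 0.584), GLI1 (0.244 ± 0.252), HHIP (0.0860 ± 0.0422) and DHH (0.0135 ± 0.0188). SHH and SMO overlapped in range, as did SMO and IHH, GLI2 and GLI1, GLI1 and HHIP, and HHIP and DHH. By level, SHH lay above 96.3% of tested genes in bulks and above 56.2% in buds. In buds SMO (11.9 ± 1.95 CPM per kilobase; SD, n = 3), IHH (8.23 ± 3.20), SHH (8.18 ± 7.32) and PTCH1 (6.16 ± 0.98) lay close together, with overlapping ranges of neighbours, above GLI3 (1.67 ± 0.47), GLI2 (0.306 ± 0.078), HHIP (0.290 ± 0.169), GLI1 (0.0557 ± 0.0612) and DHH (0.0153 ± 0.0145). GLI2 and HHIP overlapped in range there, and so did GLI1 and DHH. The order was the same when the length of all annotated exons was used, in both groups.

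**Figure D3:**
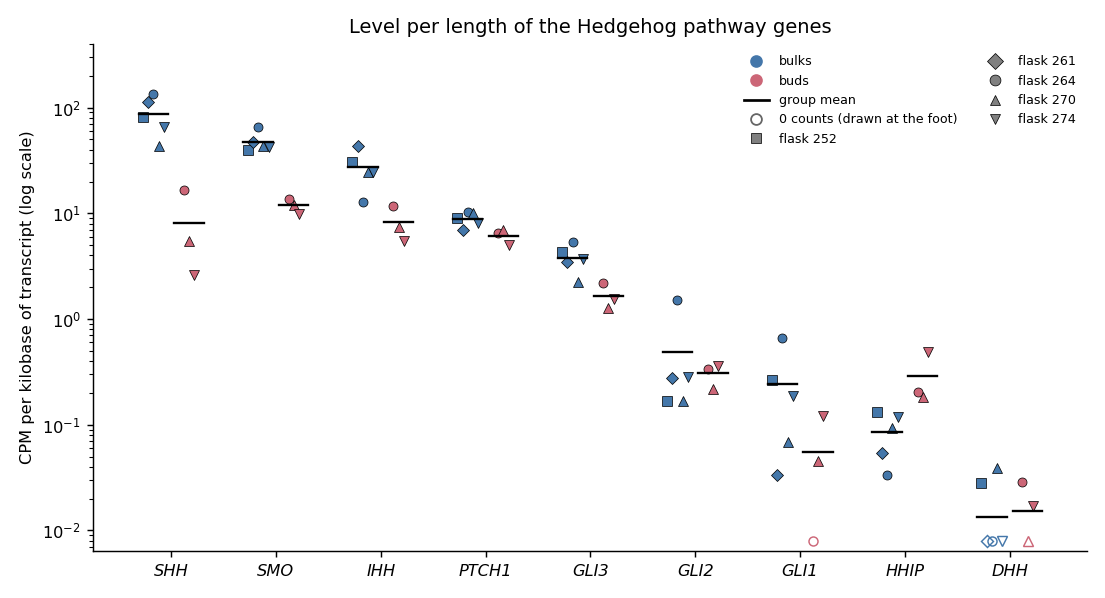
Level per kilobase of canonical transcript (log axis) for the 9 genes, ordered by their mean in bulks; points are libraries (blue bulks, n = 5; red buds, n = 3), black bars are group means and open points at the foot are libraries with 0 counts. The ligands SHH and IHH and the transducer SMO stand above the GLI factors, and GLI2, GLI1, HHIP and DHH lie below 1 CPM per kilobase in each library but the bulk of flask 264, where GLI2 was at 1.52.

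Of 44 further pathway genes, 41 were tested, and 12 rose, 11 fell and 18 did not pass, with a median log2 fold of 0.04 against -0.02 over all genes tested. Of all genes tested 23.4% rose and 23.8% fell, so these counts, and those of the lists within them given next, lie near the background or rest on few genes. For making and releasing the ligand, 3 of 6 genes rose and 2 fell. HHAT, the enzyme that attaches palmitate to Hedgehog ligands, fell by 1.49 ± 0.26 (SE; edgeR adjusted p = 0.000965), from 11.3 ± 2.85 CPM in bulks to 4.04 ± 0.94 in buds. SCUBE3, of a family of secreted proteins that help release the ligand, fell by 1.16 ± 0.26 (edgeR adjusted p = 0.00426), while its relative SCUBE2 rose by 1.96 ± 0.40 (0.00238), from 1.25 ± 0.72 to 5.06 ± 1.35 CPM. SCUBE2 passed the filter through the buds, with 2 bulks reaching it. DISP2, a relative of the ligand-releasing DISP1, rose by 2.59 ± 0.34 (edgeR adjusted p = 0.000157), from 5.90 ± 2.98 to 36.4 ± 4.13 CPM. DISP1 itself had 0.16 ± 0.14 (edgeR adjusted p = 0.364).

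Other receptors split likewise, with 2 of 6 higher and 2 lower. GPC3, a glypican that binds Hedgehog ligand and limits signalling, fell by 3.10 ± 0.23 (SE; edgeR adjusted p = 1.26e-05), from 585 ± 123 CPM in bulks to 68.3 ± 15.1 in buds. LRP2 (megalin), a co-receptor for SHH in the mouse forebrain, fell by 1.98 ± 0.26 (edgeR adjusted p = 0.000139). The co-receptor gene BOC rose by 0.76 ± 0.21 (edgeR adjusted p = 0.0121), and had 0.61 (0.0560) without the bud of flask 264. The remaining co-receptors did not pass, CDON at -0.27 ± 0.16 (edgeR adjusted p = 0.200) and GAS1 at -1.05 ± 0.41 (0.0528).

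Of 21 genes that relay the signal from SMO to GLI, 4 rose, 3 fell and 14 did not pass, where 47.2% of all genes tested were called. KIF7, the cilium-tip kinesin that organises GLI proteins, fell by 1.10 ± 0.25 (SE; edgeR adjusted p = 0.00498) and EVC2, which couples SMO to them at the cilium base, by 1.03 ± 0.23 (0.00433). GSK3B and BTRC, a kinase and a ubiquitin ligase subunit through which GLI3 is marked and cut to its repressor form, rose by 0.79 ± 0.15 (edgeR adjusted p = 0.00136) and 0.78 ± 0.11 (0.000192). SUFU, which holds GLI proteins in the cytoplasm, had -0.42 ± 0.18 (edgeR adjusted p = 0.0794).

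Of 11 other genes known as Hedgehog targets in various tissues, 8 were tested, 4 fell and 3 rose. FOXF1, FOXF2 and FOXL1, targets in the mesenchyme around the gut, had 0 to 3 counts in every library and were not tested. CCND1 (cyclin D1) fell by 3.09 ± 0.40 (SE; edgeR adjusted p = 0.000154) and RAB34, a small GTPase of ciliogenesis, by 2.49 ± 0.24 (3.25e-05). BCL2, a survival factor, rose by 2.52 ± 0.30 (edgeR adjusted p = 8.58e-05), from 3.27 ± 1.17 to 19.3 ± 5.07 CPM, and the growth factor gene BMP4 by 1.49 ± 0.25 (0.000774). These genes answer to other signals too, and all 8 proliferation markers fell in the same buds, with summed levels of 227 to 417.5 CPM in bulks and 54.7 to 63.4 in buds; their part in the fall of CCND1 was not tested.

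**Figure D4:**
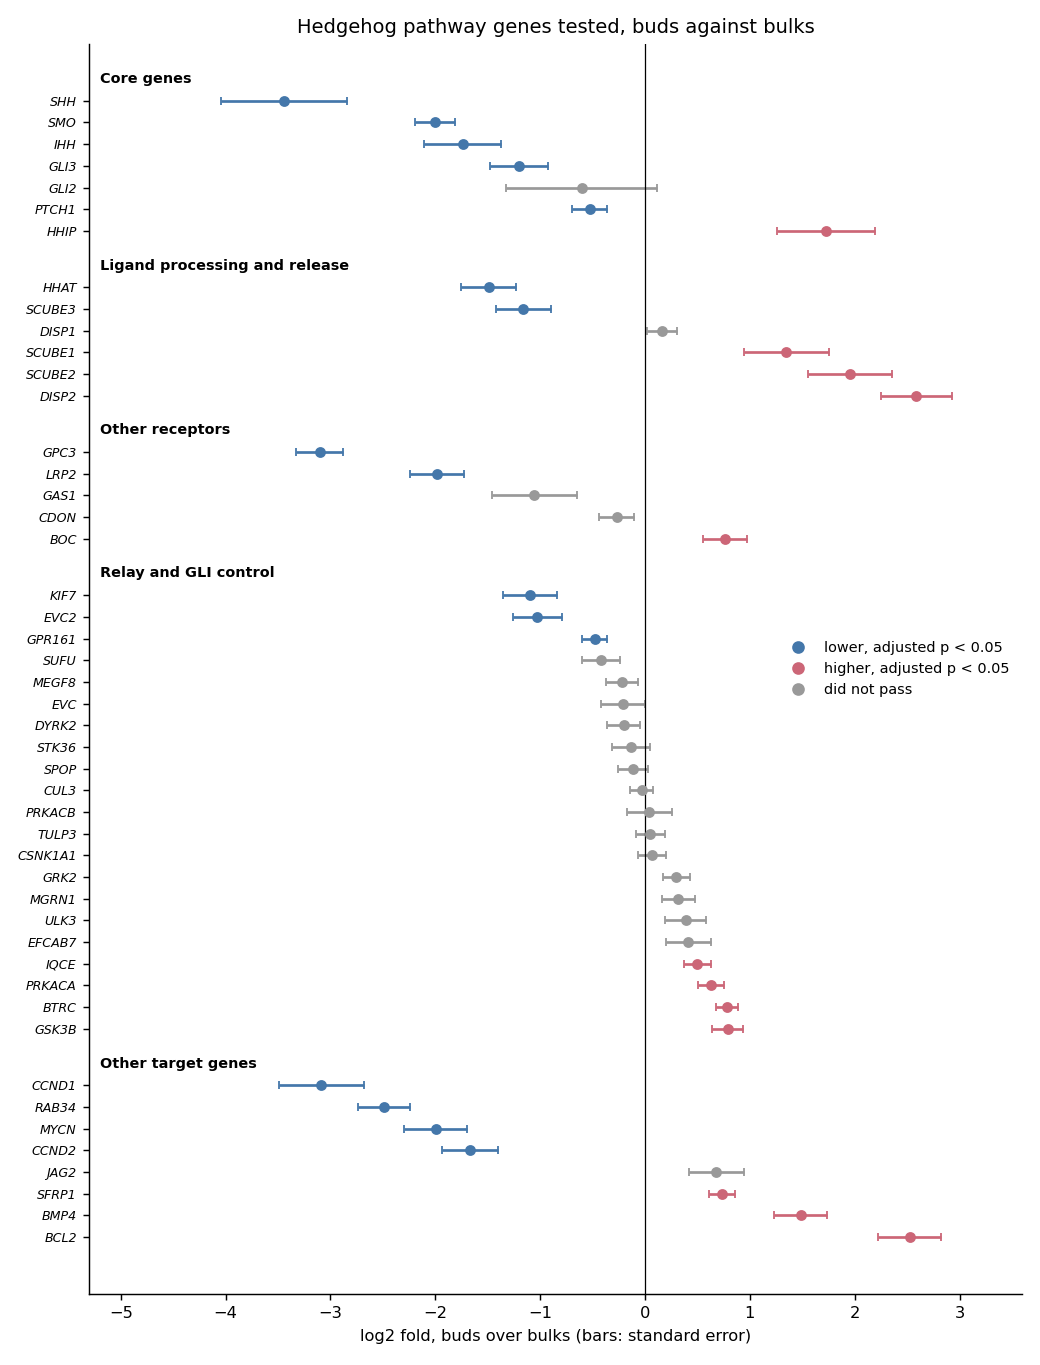
Log2 fold of buds over bulks (bars, standard error from the edgeR fit; n = 3 and 5) for the pathway genes tested and reported, grouped by role; blue passed as lower, red as higher and grey did not pass. Core genes lie mostly to the left with HHIP to the right, and relay genes range from KIF7 (-1.10) to GSK3B (0.79).

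Marker lists of other cell types differed between the groups to different degrees and in both directions, and their part was not tested. Of all genes tested 23.4% rose and 23.8% fell, and the counts of several lists below lie near these shares or rest on few genes. Of 10 gut and foregut epithelium markers, 5 were tested and 4 fell, with summed levels of 274 to 423 CPM in bulks and 125.5 to 228 in buds; CDX1, MUC2 and APOA4 had at most 10 counts in any library. All 10 neuron markers rose, from summed levels of 733 to 1100 CPM in bulks to 2790 to 4113 in buds. Of 15 mesenchyme markers, 9 were tested, 2 rose and 3 fell, with sums of 44.3 to 109.6 CPM in bulks and 50.9 to 134 in buds; TCF21, BARX1 and NKX3-2 had at most 10 counts. Of 8 genes of neural progenitors and floor plate, 5 were tested and none passed (sums of 32.8 to 87.5 CPM in bulks and 39.3 to 57.0 in buds), OLIG2 had at most 10 counts, and FERD3L had none. Of 7 genes of neural crest and Schwann cells 3 were tested and 1 fell (181 to 275 CPM in bulks and 27.6 to 89.1 in buds), and SOX10 and FOXD3 had at most 10 counts. Endothelial genes, with 2 of 6 tested, had 1 higher and 1 lower (4.45 to 8.43 and 8.003 to 11.2 CPM), with PECAM1, CDH5 and TEK at most 10 counts. Of 8 liver genes 1 rose and 3 fell (443 to 989 and 544 to 1293 CPM).

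Over the 8 libraries, the genes whose log2 CPM followed SHH most closely were ALOX15 (Pearson r = 0.998), SPOUT1 (0.997) and ZNF321P (0.997), but 1742 of 16640 genes reached an r above 0.9 with it. PTCH1 was followed by TTYH1 (r = 0.979), LPAL2 (0.971) and PDGFA (0.968), with 65 genes above 0.9. Each of these genes was itself called lower in buds, as were 23.8% of all genes tested, so r includes the difference between the groups. LPAL2 was low, at 0.722 to 3.13 CPM, and 1 bud reached the expression filter. These are descriptions of 8 points that share their libraries and depth.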

How the data were processed

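The deposited table gives expected counts for each Ensembl gene, which the authors obtained from paired-end reads with RSEM and STAR on GRCh38 at default settings, per the series' design text. Neither labels nor headers give tool versions, annotation release or strand setting. As RSEM splits reads between genes, 11.5% of values were not whole, and values were rounded before testing.

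Identifiers were matched to GENCODE release 44 for symbols, positions and transcript lengths (57392 of 58233, or 98.6%). Testing used edgeR 4.0.16 in R 4.3.3, with TMM factors, its group-wise filter on low counts (at least 10 in a library and 15 in total), the quasi-likelihood test with no covariate, and Benjamini-Hochberg adjustment over all genes at 0.05. Each standard error is the size of the log2 fold divided by the square root of F, and intervals are 95%. CPM refer to TMM-scaled libraries. Groups came from the labels. All 9 members are named, with the 2 largest rises and falls that passed in each further pathway list, except genes that are not reported here; DISP1, CDON, GAS1 and SUFU were added after their values were seen. Members, lists and tests were chosen with earlier results of these data known.

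Buds and bulks share 3 flasks, named in the labels. Library deviations from their group mean correlated within flasks at 0.127, 0.150 and 0.327, against -0.274 to 0.222 between flasks. Values of 0.127 and 0.150 lie inside the range between flasks, so these correlations do not settle whether flasks pair the samples. Pairs were taken from the labels. No pair of libraries within a group agreed within sampling noise. Flasks are separate differentiations of 1 line. The main p-values come from the fit with no flask term, so they measure the spread between flasks within each group and treat shared flasks as independent. Floors cover counting error only. Alternatives were DESeq2 1.42.0, limma-voom (limma 3.58.1), other scalings and filters, the flask block and leaving out libraries. In counts simulated for 16641 genes, 100 were given a log2 change of 1 and 100 a change of 2. There edgeR found 56.0% of the former and 83.0% of the latter, and unchanged genes made up 5.44% of its calls. In the data 47.2% of genes were called, a far larger share, so these rates do not measure recovery in this comparison.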

Additional observations from a re-analysis of the deposited data

Results flagged for a closer look

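The bulk of flask 264 lay far from the other bulks in 4 of 28 genes and ratios examined, its gap to the nearest bulk exceeding 0.71 of the group's range. About 1 group in 20 would be marked so by chance. No other bulk was marked. SMO was at 261 CPM there against at most 188 CPM in the other bulks, and GLI2 at 10.9 CPM against at most 2.03. CCND1 was at 213 CPM against at most 106, and its log2 fold without this bulk was -2.775 (edgeR adjusted p = 4.21e-05). SCUBE3 and KIF7 were also highest in this bulk but not marked. Without it their log2 folds were -0.918 (edgeR adjusted p = 0.000976) and -0.898 (0.00303). The log2 ratio of SHH to IHH counts was 4.32 there against at most 2.33.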

How the results depend on the processing

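Over all alternatives, the 5 falls of SHH, IHH, PTCH1, SMO and GLI3 and the rise of HHIP kept their direction. The number of members called lower was 5 in each setting except 4 without the bulks of flasks 252 and 264 and 4 without the bud of 274, PTCH1 being the member lost. The number called higher was 0 with genes of at least 5 CPM in at least 3 libraries, a filter HHIP does not reach. When 1 library was left out this number ran from 0 to 1, 0 being without the bud of 274. HHIP was the member lost there, with a log2 fold of 1.122 (edgeR adjusted p = 0.103). Why HHIP was highest in that bud was not tested. GLI2 changed sign, to 0.44 without the bulk of flask 264 and 0.35 without those of 252 and 264, where GLI2 was at 10.9 CPM in the former; leaving out 1 library at a time gave -0.85 to 0.44. SHH ran from -4.45 to -3.00 and SMO from -2.12 to -1.86. Other pathway genes called ran from 11 to 12 lower and from 9 to 14 higher. All genes called ran from 5993 to 8024. With flask as a replicate block 6621 genes were called, against 7861. No call changed on the members or on the named further genes that had passed. DISP1, CDON, GAS1 and SUFU, which had not passed, were not followed over the alternatives. The within-flask difference of the SHH to IHH log2 ratio was -2.22, and of SMO to PTCH1 -1.44. Depth limits DHH and GLI1, which stayed at or under 16 counts.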
